A study of Arabidopsis thaliana with 8 samples.

Results

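The 10 genes described here lie on chromosome 1 and encode pentatricopeptide repeat (PPR) proteins, most of them of the Restorer-of-Fertility-like (RFL) group. They were followed across 3 NRPD1 genotypes and 4 sRNA size classes (21, 22, 23 and 24 nt) in Arabidopsis thaliana endosperm. They had been chosen by identifier, as known sources of secondary 21-nt siRNAs that lie near NRPD1. The rule names identifiers and position and uses no read count, but it was written with earlier results of these data known. The 10 genes are AT1G62590, AT1G62720 (NG1), AT1G62910 (RFL9), AT1G62930 (RPF3), AT1G63080, AT1G63130 (RPF6), AT1G63150, AT1G63230, AT1G63330 and AT1G63400. All 10 are listed among the 33860 gene and miRNA entries of the 21- and 24-nt tables and the 33433 gene entries of the 22- and 23-nt tables, except in the 21-nt table of nrpd1-/-, where the values of 2 could be used.

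The source of the small RNAs was endosperm, the nutritive tissue of the seed, dissected from Ler x Col-0 crosses (female parent first) 7 days after pollination. There were 3 genotypes among the 8 libraries. In mat nrpd1+/- (3 libraries) a Ler nrpd1-/- mother was pollinated by wild-type Col-0, in pat nrpd1+/- (2 libraries, replicates 2 and 3) a wild-type Ler mother by Col-0 nrpd1-/-, and in nrpd1-/- (3 libraries) both parents were mutant. Every mutant parent carried the nrpd1a-4 allele, a Col-0 T-DNA insertion that 4 rounds of introgression had brought into Ler. Each library pooled endosperm of many seeds, and replicates came from different parent plants. A further pat nrpd1+/- library was discarded by the study for too few reads. No plain wild-type library belongs to these samples. Because sRNA tables hold no mRNA levels, the identity of the tissue could not be checked against endosperm markers.

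NRPD1 (AT1G63020, chromosome 1, 23354685 to 23362589 in TAIR10) sits between the fourth and the fifth of the PPR genes, whose nearest members are 25.0 kb (AT1G63080) and 46.0 kb (RPF3) away and whose farthest is 175 kb away (AT1G62590). Ler mothers selected for the Col-0 allele of NRPD1 may therefore carry Col-0 sequence at these genes, whereas the wild-type Ler mothers of pat nrpd1+/- carry Ler sequence. In every comparison with pat nrpd1+/-, loss of maternal NRPD1 and the accession of the maternal gene copies cannot be told apart.

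PPR proteins are made of tandem helical repeats that bind organellar RNA, and RFL proteins act mainly in mitochondrial RNA processing. Several RFL transcripts are cut by miR161, miR400 or TAS-derived siRNAs. RDR6 copies the fragments into double-stranded RNA, and DCL4 dices it into 21-nt phased siRNAs. This route is distinct from the Pol IV route, in which NRPD1, the largest subunit of Pol IV, transcribes transposons and repeats, RDR2 copies the transcript and DCL3 cuts 24-nt siRNAs. TAS genes, which yield trans-acting siRNAs by the RDR6 route, served here as a second yardstick beside the sum of all reads in genes.

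AT1G63080, RPF6 and AT1G63150 are annotated as loci that generate trans-acting siRNAs. AT1G63080 and RPF6 are further annotated as targets of the TAS2-derived siR2140, and an siRNA of RPF6 is annotated to cut RPF3 mRNA. RPF3 is known for 5′ processing of mitochondrial mRNAs, and NG1 is a mitochondrial protein needed for seed germination. AT1G62590 spans 23176930 to 23179248 of chromosome 1 and AT1G63400, the last of the 10, spans 23507178 to 23509484. Their coding sequences run from 972 bases (AT1G63230) to 1905 bases (AT1G62590) in 1 to 3 exons.

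The mature miRNAs said to start siRNA production at these transcripts are shown because their sites were searched in the 10 genes. They were read from the TAIR10 genome at their RefSeq positions, 5′ to 3′ in DNA letters, with the seed (bases 2 to 8) in capitals. miR161.1 and miR161.2 are cut from 1 precursor in overlapping frames and have different seeds.
miR161.1: tGAAAGTGactacatcggggt
miR161.2: tCAATGCAttgaaagtgacta
miR400: tATGAGAGtattataagtcac

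A site was accepted at a mismatch score of 4 or less (1 for a mismatch, 0.5 for a G:U pair, doubled at miRNA positions 2 to 13). By this rule, 9 of the 10 transcripts held a miR161.2 site, 8 a miR400 site and 7 a miR161.1 site, against 0.0766%, 0.0766% and 0.0415% of 31346 transcripts of the annotation and 4.23%, 4.64% and 2.62% of 496 PPR genes. All of the best sites lay in coding sequence. The sites differ between the genes, which is why 5 of them are shown, with bases paired to the miRNA by Watson-Crick pairs in capitals.
AT1G62590 and AT1G63330, miR161.2 site, score 1: TAGTCACgTTCAATGCATTGA
RFL9, RPF3 and RPF6, miR161.2 site, score 3: TAGTCACTTTCAgcGCATTGA
AT1G63080, miR161.2 site, score 4: TAGTCACTTTCAActCATTGA
NG1, miR400 site, score 1: GTGACTTATAATACTCTCATt
RFL9, RPF3, AT1G63080, RPF6 and AT1G63400, miR161.1 site, score 2.5: AtCCaaATGTAGTCACTTTCA
AT1G62590 and AT1G63330 had the same miR161.2 site and no accepted miR161.1 site. NG1 was the only one of the 10 with no accepted miR161.2 site. These matches are letters in the Col-0 sequence, and cutting was not measured.

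The genes are paralogs, and this limits what a count of 1 gene means. Of the 21-base words of each gene, 99.7% occurred once in the nuclear genome for NG1, 75.0% for AT1G63230 and 67.1% for AT1G63080, but 14.9% for RFL9, 11.8% for AT1G62590 and 3.62% for AT1G63330. AT1G62590 and AT1G63330 share 1801 words, 83.5% of those of AT1G63330, so their counts are not independent. The longest stretch shared by 7 of the genes (AT1G62590, RFL9, RPF3, RPF6, AT1G63150, AT1G63330 and AT1G63400) is printed to show how far a 21-nt read from it can be placed. In AT1G62590 it lies on the minus strand at chr1:23178740-23178767, and its first 21 bases occur at 8 places of the genome.
shared stretch: CAAGATGATGAAACTCGGCTATGAGCCC
NG1 shares no 21-base word with any of the other 9 genes, and AT1G63230 shares none with them either, although 25.0% of its words occur in further RFL genes.

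Reads in genes numbered 950211 to 1000966 per mat nrpd1+/- library and 1179409 to 2192728 per pat nrpd1+/- library in the 21-nt class, and 205669 to 231442, 295509 to 765564 and 187467 to 265785 (nrpd1-/-) in the 22-nt class. In the 24-nt class the totals were 880535 to 1099934, 1117563 to 3274885 and 281070 to 484720. The 24-nt total was thus lowest in nrpd1-/-, and any value per genic read in that genotype rests on a smaller base. At NRPD1 itself, 24-nt reads numbered 288, 258 and 242 in mat nrpd1+/-, 170 and 73 in pat nrpd1+/-, then 10, 13 and 10 in nrpd1-/-. These are sRNAs and not the NRPD1 mRNA, so they are no check of the mutation.

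All 10 genes gave 21-nt sRNAs in both heterozygotes, NG1 and AT1G63230 far fewer than the others. Together the 10 genes gave 12973 to 14028 21-nt reads per mat nrpd1+/- library and 23716 to 41550 per pat nrpd1+/- library. This was 1.38% ± 0.0201 (SD, n = 3) and 1.95% ± 0.0820 (SD, n = 2) of the 21-nt reads in genes. For every 100 reads of the TAS genes, they gave 18.4 ± 1.65 and 25.2 ± 5.89 reads. On that scale the pat libraries stood at 29.4 and 21.1, and the highest mat library at 20.3.

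In RPKM (here 21-nt reads per kb of gene, scaled to the 21-nt reads in genes), the level in mat nrpd1+/- was highest at RPF6 (1063 ± 26.4) and lower at RFL9 (924 ± 34.2), RPF3 (898 ± 23.1) and AT1G63150 (879 ± 29.6), and these last 3 genes overlapped with their neighbours in the order. AT1G63080 (680 ± 47.8), AT1G63400 (573 ± 17.8) and AT1G63330 (397 ± 8.27) followed without overlap. AT1G62590 reached 172 ± 8.54, AT1G63230 39.0 ± 7.45 and NG1 8.28 ± 1.28 (all SD, n = 3). In pat nrpd1+/- the order changed at the top, with AT1G63080 first at 1701 ± 74.6 (SD, n = 2), above RPF6 at 1292 ± 70.1. NG1, whose sequence is nearly unique, thus gave fewer reads per kb than any of the others, and for NG1 the description of a strong siRNA source did not hold in these libraries.

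**Figure D1:**
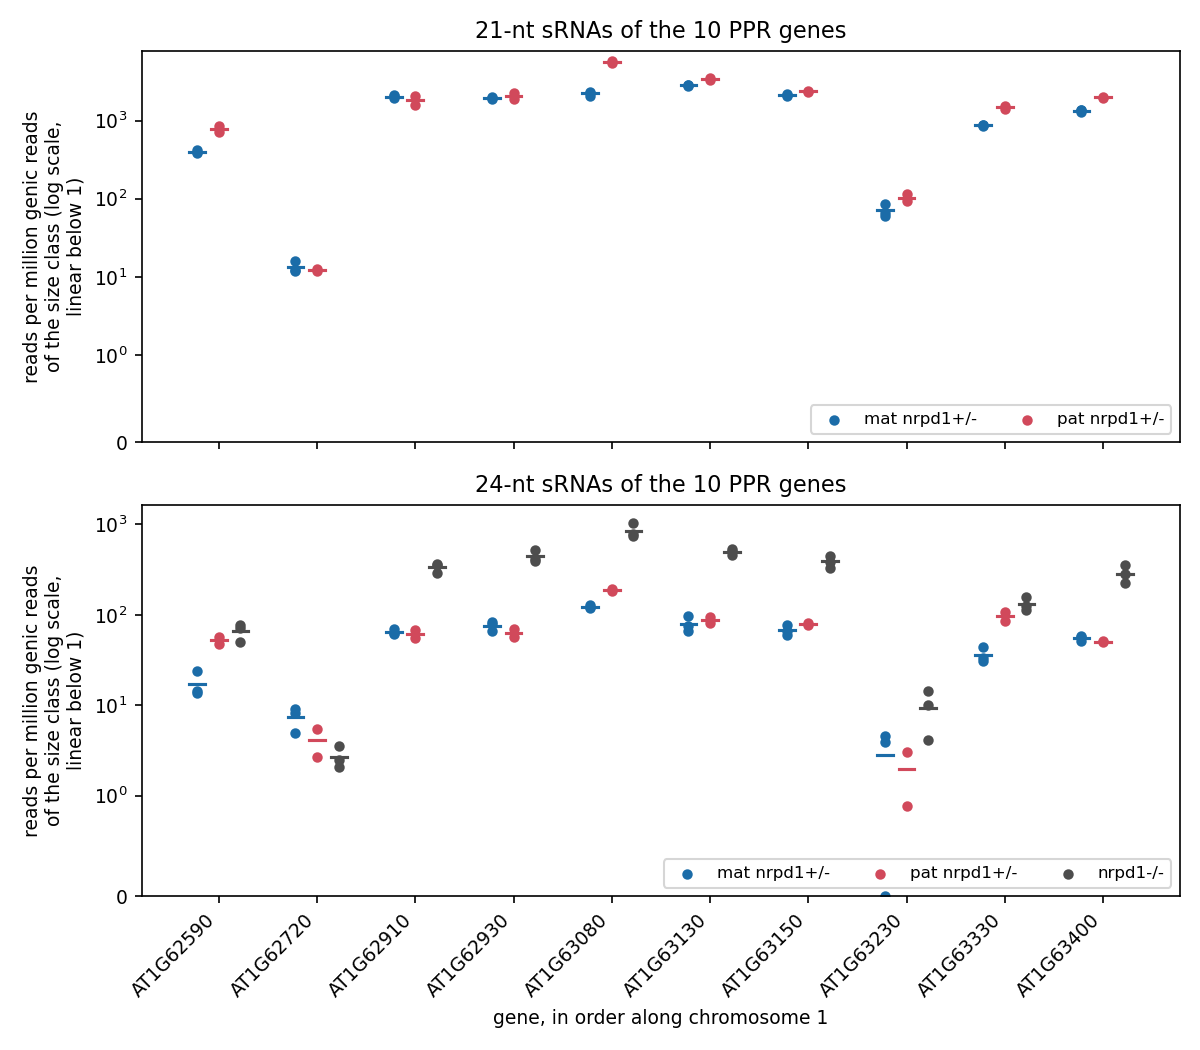
Reads of each of the 10 PPR genes in CPM of the genic reads of the same size class, for 21-nt sRNAs (top, mat and pat nrpd1+/-) and 24-nt sRNAs (bottom, all 3 genotypes), on a log axis that is linear below 1. Points are libraries and bars are means. AT1G63080, AT1G62590 and AT1G63330 stand higher in pat nrpd1+/- than in mat nrpd1+/- in both panels, and the nrpd1-/- points of the lower panel are divided by smaller genic totals (281070 to 484720 reads).

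The reads were mostly 21 nt long in both heterozygotes. Of all 21- to 24-nt reads of the 10 genes, 83.3% ± 1.01 (SD, n = 3) were of 21 nt in mat nrpd1+/- and 83.5% ± 1.41 (SD, n = 2) in pat nrpd1+/-, and 3.27% ± 0.170 and 3.54% ± 0.919 were of 24 nt. The ranges of the heterozygotes overlapped. TAS genes held 71.6% to 73.7% (mat) and 69.9% to 76.8% (pat) 21-nt reads, and all genic reads only 35.6% to 40.8% and 31.4% to 40.8%. The mean shares of 9 of the genes lay between 76.0% and 87.3% in mat nrpd1+/-. NG1 was the exception, with 54.4% ± 8.17 of 21 nt and 30.6% ± 8.51 of 24 nt (SD, n = 3), from 12, 15 and 12 reads of 21 nt. Over the 22- to 24-nt classes, which all genotypes share, the 22-nt share of the 10 genes was 73.4% ± 0.177 (SD, n = 3) for mat nrpd1+/-, 72.4% ± 3.89 (SD, n = 2) for pat nrpd1+/- and 69.6% ± 3.60 (SD, n = 3) for nrpd1-/-. The pat range overlapped with both others, and the 3 nrpd1-/- libraries lay below the 3 mat libraries.

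**Figure D2:**
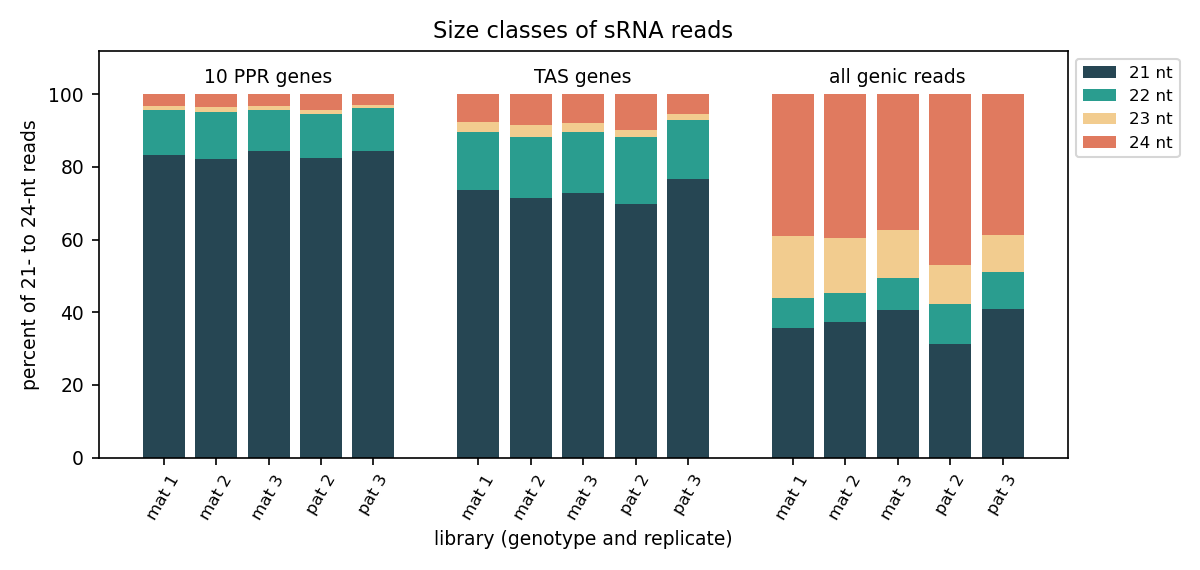
Share of 21-, 22-, 23- and 24-nt reads (percent, stacked to 100) in each mat and pat nrpd1+/- library, for the 10 PPR genes, the TAS genes and all reads in genes. The 21-nt share is 82.3% to 84.5% at the PPR genes and 31.4% to 40.8% over all genic reads.

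The heterozygotes were compared directly to ask whether the parent that transmits the mutant allele matters for these siRNAs. In the 21-nt class 3 of the 10 genes, AT1G63080, AT1G62590 and AT1G63330, rose in pat nrpd1+/- relative to mat nrpd1+/- and 0 fell, whereas of 3131 tested entries 9.65% rose and 3.48% fell (edgeR). The median log2 fold change of the 10 genes was 0.81, beside -0.07 for all tested entries. A call required an adjusted p of at most 0.05 in edgeR's quasi-likelihood test and a fold change of at least 2. In 9 of 10 genes, all but NG1, both pat libraries lay above all 3 mat libraries after scaling, against 21.0% of the tested entries.

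AT1G63080 gave 2345, 2162 and 1972 21-nt reads in mat nrpd1+/- and 11798 and 6752 in pat nrpd1+/-, and its log2 fold change was 1.71 ± 0.24 (SE; adjusted p = 0.000221). The pat libraries were far above the mat libraries in raw reads and stayed so after scaling. AT1G62590 gave 382, 399 and 378 against 1879 and 834 reads (1.38 ± 0.28, adjusted p = 0.00416). AT1G63330, which shares most of its sequence with AT1G62590, gave 847, 838 and 837 against 3317 and 1679 reads (1.15 ± 0.26, adjusted p = 0.0100). For these 3 genes the spread between pat libraries was wider than that between mat libraries, but the groups did not overlap.

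The other strong sources changed less. AT1G63400 gave 1345, 1211 and 1299 against 4271 and 2362 reads, and its log2 fold change of 0.96 ± 0.26 passed the p threshold (0.0256) but not the fold threshold. RPF6, with 2870, 2594 and 2717 against 7187 and 4174 reads, had a log2 fold change of 0.66 ± 0.25 (adjusted p = 0.116), and AT1G63150 one of 0.53 ± 0.26 (adjusted p = 0.224). RPF3 (0.46 ± 0.25, adjusted p = 0.272) and RFL9 (0.21 ± 0.25, adjusted p = 0.631) were nearest to 0 among them. RFL9 gave 2092, 1847 and 1973 reads in mat nrpd1+/- and 3478 and 2409 in pat nrpd1+/-, and was below 0 when libraries were scaled by plain genic totals (-0.16) or by TAS reads (-0.24). Under either of these scalings AT1G63080 was the only one of the 10 still called (log2 fold changes 1.32 and 1.28). Without pat replicate 3 the 21-nt count was 5 in place of 3. NG1 changed direction under the same scalings.

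AT1G63080, AT1G62590 and AT1G63330 also rose in each of the longer classes. At 22 nt, 5 of the 9 genes tested rose (9.57% of all tested entries did), with log2 fold changes of 1.92 ± 0.34 at AT1G63080, 1.90 ± 0.33 at AT1G62590, 1.74 ± 0.29 at AT1G63330, 1.35 ± 0.27 at AT1G63400 and 1.27 ± 0.35 at AT1G63150. At 23 nt, 5 of 8 tested genes rose (7.60% of all). AT1G62590 (6, 4 and 3 against 38 and 21 reads, 3.15 ± 0.39) and AT1G63330 (10, 16 and 7 against 58 and 33 reads, 2.45 ± 0.36) passed the filter on low counts only through the pat libraries in which they were high, so their place among the 5 has no weight as a count. AT1G63080, AT1G63150 and RFL9, which passed in mat nrpd1+/- alone, had log2 fold changes between 1.21 and 1.80. At 24 nt, 5 of 8 rose (5.34% of all). AT1G62590 had 16, 24 and 12 reads of 24 nt in mat nrpd1+/- against 155 and 64 in pat nrpd1+/- (log2 fold change 2.44 ± 0.27, adjusted p = 2.45e-05), and AT1G63330 had 34, 45 and 29 against 280 and 120 (2.26 ± 0.22, adjusted p = 7.85e-06). AT1G63080 (1.49 ± 0.19), AT1G63150 (1.09 ± 0.22) and RPF6 (1.01 ± 0.22) also rose. Leaving out pat replicate 3 raised the 22-nt count to 9, and leaving out mat replicate 1 or 2 lowered the counts at 22, 23 and 24 nt to 3, as did leaving out pat replicate 2 at 23 and 24 nt. The genes not tested for low counts were NG1 at 22 nt, and NG1 and AT1G63230 at 23 and 24 nt.

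How many of the genes passed the threshold depended on the scaling. The 5 scalings (TMM, DESeq2 size factors, plain genic totals, mature miRNA reads, TAS reads) gave 1 to 5 called genes at 21 nt, 0 to 5 at 22 nt and 2 to 5 at 23 and at 24 nt. A scaling moves all entries of a table nearly alike, so the median of the PPR genes minus that of all tested entries hardly responds to it, and it was 0.88 at 21 nt, 1.27 at 22 nt, 1.31 at 23 nt and 1.004 at 24 nt (log2, TMM). Settings that change the fit or the entries tested moved it to 0.65, 0.71, 0.91 and 0.76 with DESeq2's test and to 0.63, 0.61, 0.88 and 0.73 without the filter on low counts. It also depended on single pat libraries. Without pat replicate 2 it was 0.64, 0.83, 1.12 and 0.92, and without pat replicate 3 it was 1.07, 1.63, 1.59 and 1.06. The TAS genes also had a median above that of all entries, 0.41 over the 6 tested at 21 nt and 1.15 at 22 nt. At 22 nt, with libraries scaled by TAS reads, 0 of the PPR genes were called.

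Ratios between genes of the same library need no scaling. AT1G63080 gave 1.12, 1.17 and 0.999 times the 21-nt reads of RFL9 in mat nrpd1+/- and 3.39 and 2.80 times in pat nrpd1+/-. At 22 nt the ratio was 1.84, 1.95 and 1.70 in mat nrpd1+/-, 3.81 and 3.22 in pat nrpd1+/-, then 1.70, 1.94 and 2.29 in nrpd1-/-. The pat libraries stood apart, and mat nrpd1+/- and nrpd1-/- overlapped. No test was run on these ratios, since 3 libraries against 2 are too few for an exact test.

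For AT1G62590 the 24-nt ratio to RFL9 was 0.232, 0.338 and 0.222 in mat nrpd1+/-, 0.861 and 0.842 in pat nrpd1+/-, then 0.170, 0.212 and 0.202 in nrpd1-/-. For AT1G63330 it was 0.493, 0.634 and 0.537, then 1.56 and 1.58, then 0.390, 0.438 and 0.354. Again only the pat libraries were high, and the 24-nt ratios of nrpd1-/- all lay below those of mat nrpd1+/- for both genes. RPF3 shifted less, with 0.934, 1.01 and 0.918 times the 21-nt reads of RFL9 in mat nrpd1+/- and 1.19 and 1.09 times in pat nrpd1+/-. In nrpd1-/- it gave 1.11, 1.08 and 1.08 times. RPF6 gave 1.37, 1.40 and 1.38 times the 21-nt reads of RFL9 in mat nrpd1+/- and 2.07 and 1.73 times in pat nrpd1+/-. The pat ratios of RPF3 and RPF6 thus also lay above their mat ratios. The ratios restate, without scaling, the fold changes given above, since AT1G63080, AT1G62590 and AT1G63330 are the genes that rose and RFL9 is the one whose 21-nt fold change was smallest.

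**Figure D3:**
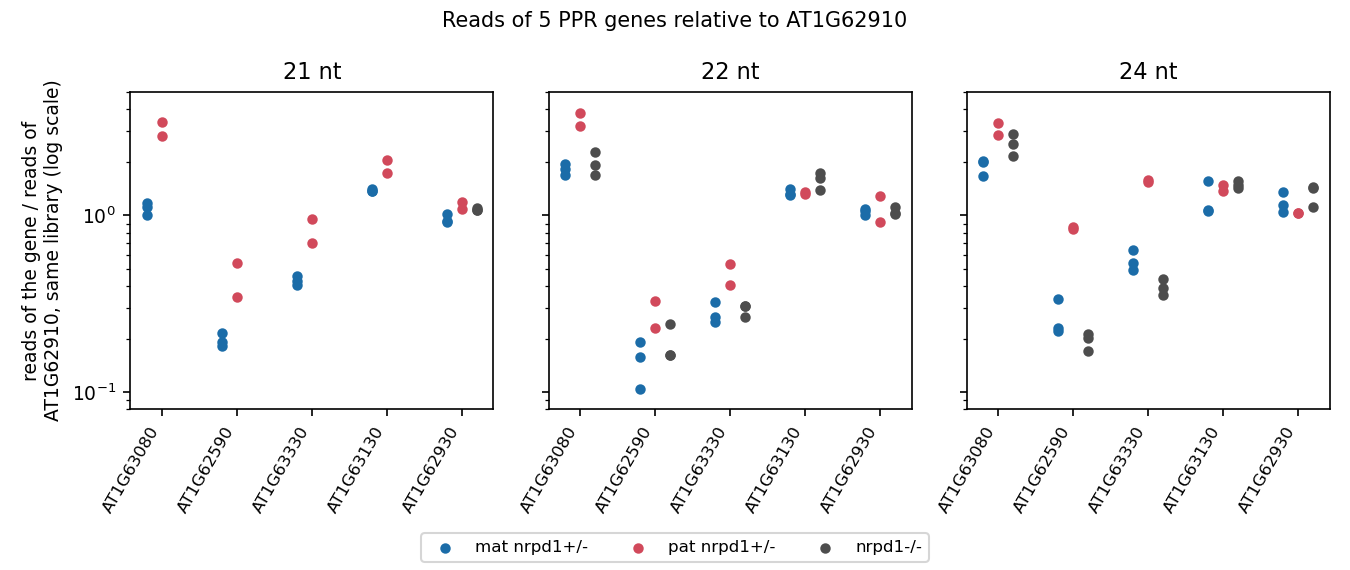
Reads of 5 PPR genes divided by the reads of RFL9 (AT1G62910) in the same library, on a log axis, for 21-, 22- and 24-nt sRNAs. Each point is a library, and at 21 nt nrpd1-/- has values for RPF3 only. In the 24-nt panel the pat points of AT1G62590 (0.842 and 0.861) lie above all mat and nrpd1-/- points (0.170 to 0.338).

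In nrpd1-/- endosperm, where both parents lacked NRPD1, 8 of the 10 PPR genes still gave reads in every library and class that could be read, and NG1 and AT1G63230 were at or near 0 in the 23- and 24-nt classes. For RFL9 and RPF3, the only ones of the 10 in the usable entries of the 21-nt table, 21-nt reads numbered 2278, 3064 and 2232, and 2522, 3307 and 2411. These entries are those that passed the authors' own test against wild type, so they are a selected pair and no fit was made at 21 nt.

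At 22 nt in nrpd1-/- relative to mat nrpd1+/-, 9 genes were tested. With TMM their median log2 fold change was 1.22, beside -3.62 for all tested entries. The gap between these medians was 4.84 with TMM, 1.69 with DESeq2's test and 1.62 without the filter on low counts. RPF6 gave 384, 359 and 341 reads in mat nrpd1+/-, 763 and 495 in pat nrpd1+/-, then 590, 796 and 611 in nrpd1-/-. AT1G63080 gave 500, 538 and 439, then 2193 and 1175, then 720, 946 and 806. The nrpd1-/- counts of both genes lay above those of mat nrpd1+/- in every library. With TMM 9 of 10 further RFL genes tested rose (median log2 fold change 1.21), as did 2 of 6 tested TAS genes (median 0.84). All 9 PPR genes rose (log2 fold changes 1.10 to 1.43, against 25.6% of all tested entries that rose). With DESeq2 size factors, genic totals, miRNA reads or TAS reads none was called, nor was any with DESeq2's own test, and without mat replicate 1, 2 or 3 the count fell to 2, 3 and 1. Per 100 TAS reads the 10 genes gave 11.9 ± 0.191 reads of 22 nt in mat nrpd1+/- and 15.4 ± 1.31 in nrpd1-/- (SD, n = 3 each), with no overlap. Against pat nrpd1+/- (15.2 ± 1.86, SD, n = 2), 0 of 9 genes were called by edgeR, none had an unadjusted p under 0.05, DESeq2's test called none, and 7.67% of all tested entries rose and 38.5% fell. On simulated counts this fit recovered only 41.5% of 4-fold changes, so the lack of calls does not show equal levels.

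At 24 nt, the class that depends on Pol IV in most of the genome, the summed reads of the 10 genes were not fewer in nrpd1-/- than in mat nrpd1+/-, but NG1 was an exception. NG1 gave 9, 5 and 8 reads of 24 nt in mat nrpd1+/-, 18 and 3 in pat nrpd1+/-, then 1, 1 and 1 in nrpd1-/-, where all 3 counts were below those of mat nrpd1+/-. AT1G63230 gave 0 to 4 reads of 24 nt in each mat nrpd1+/- library and 2 to 4 in each nrpd1-/- library. The summed 24-nt reads of the 10 genes were 486 to 550 per mat nrpd1+/- library, 812 to 2111 per pat nrpd1+/- library and 887 to 1310 per nrpd1-/- library, while all genic 24-nt reads were fewest in nrpd1-/-. The share of genic 24-nt reads was 0.0530% ± 0.00267 (SD, n = 3), 0.0686% ± 0.00580 (SD, n = 2) and 0.301% ± 0.0334 (SD, n = 3). AT1G63080 gave 141, 119 and 108 reads in mat nrpd1+/-, 601 and 217 in pat nrpd1+/-, then 360, 316 and 288 in nrpd1-/-. RPF3 gave 72, 81 and 73, then 186 and 78, then 203, 208 and 111. The nrpd1-/- counts of both genes were above all mat counts.

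All 8 tested genes rose at 24 nt in nrpd1-/- relative to mat nrpd1+/- with TMM (log2 fold changes 4.30 to 5.20), against 26.9% of 4719 entries. With TMM 7 of 8 other RFL genes tested rose too (median log2 fold change 4.39), as did 4 of 5 tested TAS genes (median 3.997). The entries of miR161 (5.15) and miR173-5p (4.50) also rose, so the rise was not particular to the 8 genes. With libraries scaled by miRNA or TAS reads none of the 8 genes was called, and AT1G62590 and AT1G63330 fell below 0 with miRNA reads (-0.06 and -0.09). AT1G62590 was among the 8 only through its nrpd1-/- libraries, as 1 of 3 mat libraries reached the filter. The median of the 8 genes was 5.92 above that of all tested entries with TMM, 3.60 above it with DESeq2's test and 4.08 above it without the filter (log2). With TMM these medians were 4.87 for the genes and -1.05 for all tested entries. Per 100 TAS reads of 24 nt, the 10 genes gave 6.57 ± 0.346 in mat nrpd1+/-, 10.4 ± 0.400 in pat nrpd1+/-, then 10.2 ± 0.698 in nrpd1-/-. At 23 nt with TMM, 6 of 7 genes rose (23.1% of all tested entries did), 1 of which (AT1G63400) did not pass the filter in mat nrpd1+/- alone, and only AT1G63330 (0.82 ± 0.43, adjusted p = 0.0756) was not called. With DESeq2 size factors, miRNA reads or DESeq2's own test 0 of the 7 were called at 23 nt.

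Relative to pat nrpd1+/-, the genes split in nrpd1-/-. With TMM 4 of 5 tested TAS genes rose at 24 nt (median log2 fold change 3.26). All 8 tested PPR genes rose too (log2 fold changes 1.73 to 4.25), against 31.9% of all tested entries that rose and 54.2% that fell. The 2 smallest values were those of AT1G62590 (1.73 ± 0.45) and AT1G63330 (1.89 ± 0.49). Scaled by miRNA or TAS reads, these were the only genes called, and both fell (AT1G62590 by 2.21 and 1.83, AT1G63330 by 2.08 and 1.69 on the log2 scale). In raw reads AT1G62590 gave 24, 31 and 20 in nrpd1-/- and AT1G63330 55, 64 and 35, all below the 155 and 64 and the 280 and 120 of the pat libraries. Genic 24-nt totals were also lower in nrpd1-/- (281070 to 484720) than in pat nrpd1+/- (1117563 to 3274885). The raw counts alone do not fix the direction, which depends on the reads taken as the base. Pat replicate 3 had fewer 24-nt miRNA and TAS reads (13118 and 8029) than every nrpd1-/- library (19645 to 31761 and 9304 to 12798). Pat replicate 2 had more (38607 and 19768). Relative to RFL9 in the same library, both genes were lower in nrpd1-/-. The ratios were 0.170 to 0.212 against 0.842 and 0.861 for AT1G62590, and 0.354 to 0.438 against 1.56 and 1.58 for AT1G63330. At 23 nt, RFL9, RPF3, RPF6 and AT1G63150 rose (4 of 8, against 22.6% of all) and AT1G63330 fell (-1.20 ± 0.50, adjusted p = 0.0362, against 61.8% of all that fell). With DESeq2 size factors, miRNA reads or TAS reads 0 of 8 rose at 23 nt and 2 fell. Without pat replicate 2 or 3 only 1 gene was called at 23 nt, and DESeq2's own test called 0.

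**Figure D4:**
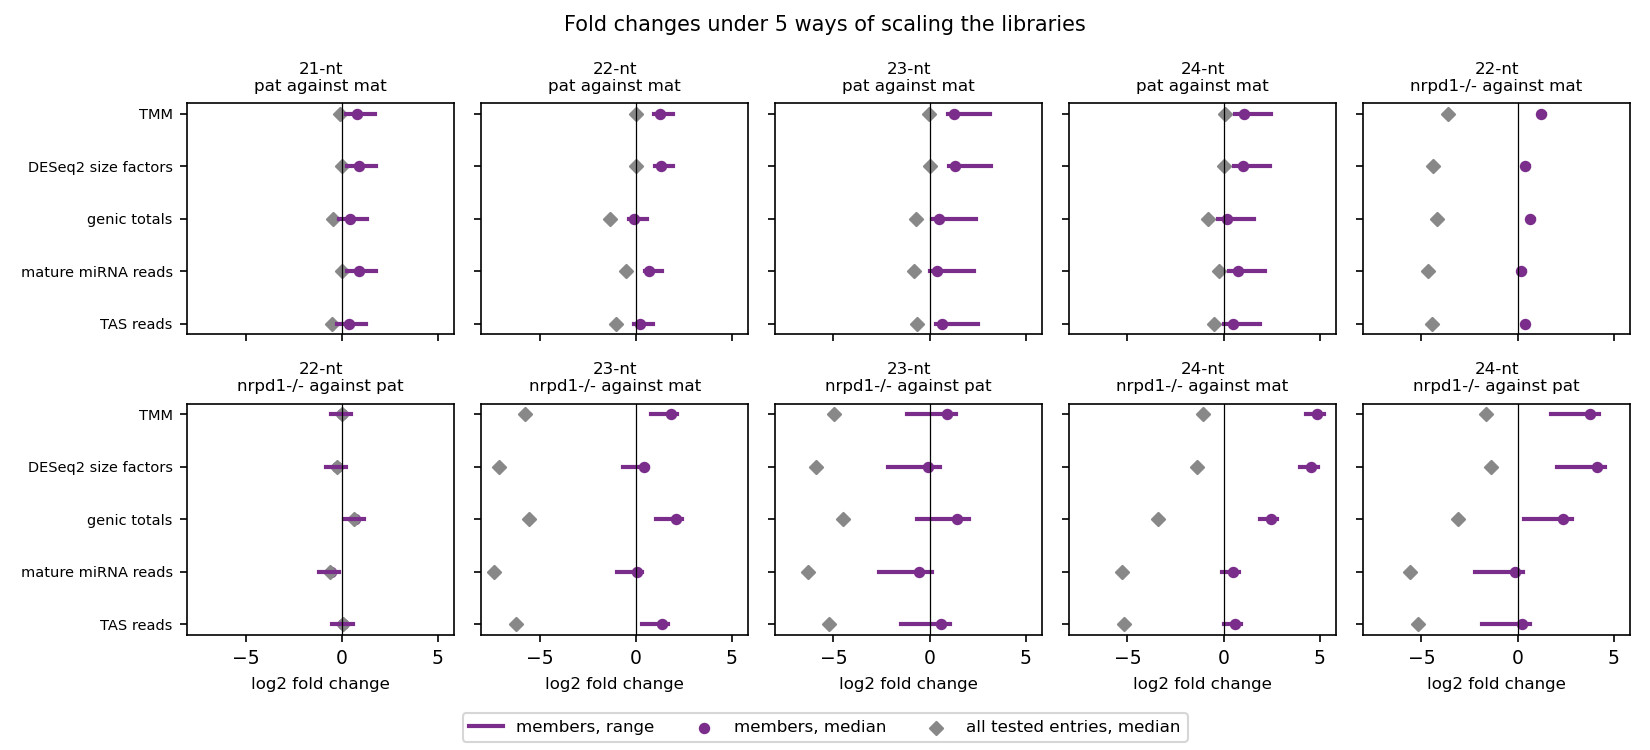
Log2 fold change in each of the 10 comparisons (panels) under 5 ways of scaling the libraries (rows): the median (purple point) and range (purple line) of the tested PPR genes and the median of all tested entries (grey diamond). The position against 0 moves with the scaling, while point and diamond move together because a scaling acts on all entries nearly alike (gap with TMM 0.88 for 21-nt pat against mat and 5.92 for 24-nt nrpd1-/- against mat).

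Other genes of the same stretch of chromosome 1 were set beside them. Of 6 further PPR genes that start between AT1G62590 and AT1G63400, 4 rose at 21 nt in pat relative to mat nrpd1+/- (median log2 fold change 1.32). They were AT1G63070 (2.10 ± 0.27, adjusted p = 8.21e-05), AT1G63320 (1.70 ± 0.28, adjusted p = 0.000702), AT1G62670 (1.42 ± 0.28, adjusted p = 0.00283) and AT1G62914 (1.12 ± 0.26, adjusted p = 0.0103). AT1G63070 gave 772, 721 and 801 reads in mat nrpd1+/- and 5902 and 2920 in pat nrpd1+/-, a larger change than that of any of the 10 genes. AT1G62860 stayed at -0.00 ± 0.26. Of 100 neighbours that encode no PPR protein only 6 had enough 21-nt reads to be tested, and 0 rose and 1 fell (edgeR, median -0.17). Within 0.5 Mb of NRPD1, the 10 genes left out, 7 of 28 tested entries rose and 2 fell, and without the 6 PPR neighbours 3 of 22 rose and 2 fell. Farther out, 2 of 18 rose and 0 fell at 0.5 to 1 Mb, and 4 of 54 rose and 10 fell at 1 to 2 Mb. At 2 to 5 Mb 10 of 98 rose and 5 fell. At over 5 Mb on the same chromosome 43 of 463 rose and 9 fell. Of all tested entries 9.65% rose and 3.48% fell.

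Among all 20 other RFL genes, 5 of 16 tested rose at 21 nt (median log2 fold change 0.85). This list holds the 6 PPR neighbours with their 4 genes that rose, and outside the stretch 1 of 10 tested RFL genes rose (median 0.74), beside 9.65% of all entries. In all 10 of these, however, both pat libraries lay above all mat libraries after scaling, against 21.0% of the tested entries. At 22 nt, 2 of 5 tested RFL genes outside the stretch rose (median 1.28), beside 9.57% of all entries. Of the TAS genes 1 of 6 rose and 1 fell at 21 nt, the latter being TAS3A (-1.20 ± 0.28, adjusted p = 0.0122), and TAS2 had a log2 fold change of 0.50 ± 0.24 (adjusted p = 0.219). Of 5 genes of the RDR6 route (RDR6, SGS3, DCL4, DCL2 and AGO1), only AGO1, which loads miRNAs and siRNAs, had enough 21-nt reads to be tested (0.30 ± 0.27, adjusted p = 0.523).

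The genes AT1G63340 and AT1G62580, which touch PPR genes, had few 24-nt reads left in nrpd1-/-. AT1G63340, on the opposite strand at the 3′ end of AT1G63330, gave 16, 8 and 7 reads of 24 nt in mat nrpd1+/-, 230 and 148 in pat nrpd1+/-, then 5, 4 and 4 in nrpd1-/- (pat relative to mat, log2 fold change 4.08 ± 0.30, adjusted p = 3.40e-07). AT1G62580, beside AT1G62590, gave 73, 73 and 71, then 185 and 102, then 1, 4 and 1. AT1G63340 was high in pat nrpd1+/-, as AT1G62590 and AT1G63330 were in this class. For AT1G62580 no fit is given. Its raw counts show no such difference, as genic 24-nt totals were 1117563 to 3274885 (pat) and 880535 to 1099934 (mat). The deposited counts do not give strand. The part of these overlaps in the 24-nt reads of AT1G62590 and AT1G63330 was not tested.

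The miRNA entries named here did not pass the test at 21 nt. miR161, counted at its overlapping positions from the same reads, had a log2 fold change of 0.52 ± 0.29 (adjusted p = 0.301) in pat relative to mat nrpd1+/-, and its pat libraries overlapped with the mat range after scaling. miR400 had 0.55 ± 0.34 (adjusted p = 0.357), and miR173-5p, the trigger of TAS1 and TAS2 siRNAs, 0.35 ± 0.26 (adjusted p = 0.439). The annotated miR173-5p is 22 nt long, so its 21-nt reads are a shorter form. The 22-nt class has no miRNA entries, and the full-length trigger was not compared. The opposite arm, miR173-3p, had 0.90 ± 0.28 (adjusted p = 0.0501), and its pat libraries lay above its mat libraries after scaling.

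The profile of the 10 genes over the 8 libraries was matched with those of other genes, by Pearson's r of log2(CPM + 1) with their summed reads. The points share genotype, library and depth, so r is only a description. At 24 nt, among 3362 genes that averaged 20 reads or more, the most alike were AT3G44570 (r = 0.999), AT5G08525 (0.997), AT3G31902 (0.995), TAS2 (0.995) and the PPR gene AT1G62914 (0.993). At 22 nt, among 926 genes, they were the PPR genes AT1G62914 (0.982) and AT1G12300 (0.975), then ATCG00480 (0.969), TAS1A (0.967) and TAS2 (0.957).

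Beside the authors' wild-type mean, worked out from their normalized counts and with no SD or n, the 10 genes stood at a median ratio of 1.09 in mat nrpd1+/- and 1.66 in pat nrpd1+/- for 21-nt sRNAs. In pat nrpd1+/- all 10 ratios were above 1, from 1.45 (NG1) to 2.01 (RPF3). In mat nrpd1+/- they ran from 0.513 (AT1G63080) to 1.54 (RPF3), with AT1G62590 (0.718) and AT1G63330 (0.778) also below 1. AT1G63400, which was not called, was below 1 there too (0.904). In pat nrpd1+/-, AT1G63080, AT1G62590 and AT1G63330 stood at 1.58, 1.75 and 1.63, near the median of the 10 genes. At 21 nt they thus differed from the other genes in mat and not in pat nrpd1+/-. At 24 nt AT1G62590 stood at 0.217 in mat and 0.998 in pat nrpd1+/-. AT1G63330 stood at 0.330 and 1.34, and AT1G63080 at 1.03 and 2.43. In nrpd1-/- the 21-nt ratios of RFL9 and RPF3 were 1.94 and 2.29. Their entries had been selected by the authors' test against wild type, so a ratio away from 1 was fixed beforehand. At 22 nt, without such a selection, the nrpd1-/- ratios ran from 0.692 (NG1, few reads) to 2.31 (RPF6), with AT1G63080 at 0.968. These ratios rest on each table's own size factors.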

How the data were processed

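Small RNAs of 8 endosperm libraries were analysed from the deposited gene tables. Per the labels and the study's methods, the authors trimmed reads, removed adapters with Cutadapt and PCR duplicates with Prinseq-lite, and aligned reads with Bowtie 1.2.2 to TAIR10 and a Ler pseudo-genome. A read with several best alignments was kept at 1, so counts of paralogs are uncertain. The authors counted reads per Araport11 gene and size class, without stated use of strand. Raw read counts stand in the deposited columns of single libraries. The authors also deposited a normalized signal, counts divided by DESeq2 size factors, which gave only the ratios to the authors' wild-type mean. Reads in no gene (51.8% to 89.2% of a class per library) or in several (0.349% to 3.05%) were left out. The 21-nt table of nrpd1-/- holds 2099 own entries, all past the authors' adjusted p, while its remaining 31766 entries are copies from pat nrpd1+/-, so only its own were read. The deposited transposon tables, window lists, fold changes and p-values against wild type were not used, nor were 344 per-library columns, among them those of wild-type libraries of another series.

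Groups were compared in pairs with edgeR 4.0.16 (R 4.3.3): filterByExpr, TMM factors on genic totals, quasi-likelihood test, Benjamini-Hochberg over all entries tested, and a call at an adjusted p of 0.05 and a fold change of 2. The study's pairwise DESeq2 was run as an alternative (DESeq2 1.42.0), beside other scalings, no filter, a replicate block and fits without each library. The fits were tested on simulated counts with 200 entries changed 4-fold. From 41.5% (22 nt, nrpd1-/- against pat) to 85.5% (22 nt, nrpd1-/- against mat) of these were recovered. All other simulated entries were unchanged, whereas 1528 of 1788 entries were called at 22 nt for nrpd1-/- relative to mat nrpd1+/-. The recovered shares therefore do not show how well TMM scaled the comparisons with nrpd1-/-. SE is the log2 fold change over the root of the F statistic. Replicates came from different parent plants, so p-values measure the spread between such pools. Positions and sequences come from RefSeq's TAIR10.1 annotation. PPR genes were recognised by that annotation. The 10 genes, all named whatever their values, and the lists set beside them were chosen with earlier results of these data known. The planned permutation test on the summed size shares is not given for that reason, and shares are described by library.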

Additional observations from a re-analysis of the deposited data

How the results depend on the processing

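How many of the PPR genes were called depended on how the libraries were scaled, and the cause was not tested here. For nrpd1-/- against wild type, the study reports that DESeq2 set wild-type library sizes too low, because most loci had lost sRNAs. For pat relative to mat nrpd1+/-, the counts with TMM were 3 at 21 nt and 5 at 22, 23 and 24 nt. At 21 nt they were 5 with DESeq2 size factors or miRNA reads and 1 with genic totals or TAS reads. At 22 nt they were 0 with genic totals or TAS reads, 1 with miRNA reads and 3 without the filter on low counts. At 23 nt they were 2 with genic totals or miRNA reads, and 3 with TAS reads, with DESeq2's test and without the filter. At 24 nt they were 2 with genic totals or TAS reads, and 3 with miRNA reads, with DESeq2's test and without the filter. Scaling by TAS reads was added after seeing the data. For nrpd1-/- relative to mat nrpd1+/-, the 9 calls at 22 nt became 0 under every other scaling, with DESeq2's test and without the filter, the 6 at 23 nt became 0 with DESeq2 size factors, miRNA reads or DESeq2's test, and the 8 at 24 nt became 0 with miRNA or TAS reads. Relative to pat nrpd1+/-, the 0 calls at 22 nt stayed at 0 throughout, the 5 at 23 nt became 2, all lower, with DESeq2 size factors, miRNA or TAS reads, 1 without the filter and 0 with DESeq2's test, and the 8 at 24 nt became 2, both lower, with miRNA or TAS reads.

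Leaving out 1 library at a time gave 2 to 5 calls (21 nt), 3 to 9 (22 nt), 3 to 7 (23 nt) and 3 to 5 (24 nt) for pat relative to mat, 1 to 9 (22 nt), 5 to 6 (23 nt) and 8 (24 nt) for nrpd1-/- relative to mat, and 0 (22 nt), 1 to 5 (23 nt) and 8 (24 nt) for nrpd1-/- relative to pat nrpd1+/-. Where only 1 pat library was left it was assumed to vary like the other group. The 22-nt share in mat nrpd1+/- was 72.6% as the median of the genes' own shares. Without the gene with most reads it was 72.9%, and the 21-nt share in mat nrpd1+/- was 84.7%. Without 1 library the 21-nt share was 82.8% to 83.8% (mat) and 82.5% to 84.5% (pat), and the 22-nt share 73.3% to 73.5% (mat), 69.7% to 75.2% (pat) and 68.1% to 71.6% (nrpd1-/-). The median ratio to the wild-type mean was 1.06 to 1.15 (mat) and 1.55 to 1.77 (pat) at 21 nt, 0.885 to 0.936 and 1.71 to 2.04 at 22 nt, 0.871 to 1.16 and 1.80 to 2.33 at 23 nt, and 1.03 to 1.10 and 1.77 to 1.88 at 24 nt.

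With the replicate number as a block, the counts for pat relative to mat were 1, 1, 2 and 4 at 21, 22, 23 and 24 nt, those for nrpd1-/- relative to mat 9, 6 and 8 at 22, 23 and 24 nt, and those for nrpd1-/- relative to pat 0, 3 and 8. The numbers were not taken to pair the samples, since the deviations of same-numbered libraries correlated at -0.304 to -0.0592 between pat and mat and at -0.0845 to 0.0576 between nrpd1-/- and mat nrpd1+/-. Between nrpd1-/- and pat, which share only 2 numbers, they correlated at 0.00996 to 0.0454 for replicate 2 and at 0.260 to 0.318 for replicate 3.

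Single genes changed direction as follows (log2 fold changes). For pat relative to mat at 21 nt, NG1 was at -0.13 and RFL9 at -0.16 with genic totals, and at -0.16 and -0.24 with TAS reads. At 22 nt with genic totals, RFL9 was at -0.34, RPF3 at -0.32, RPF6 at -0.34, AT1G63150 at -0.11, AT1G63230 at -0.28 and AT1G63400 at -0.0041, and with TAS reads RFL9 and RPF6 were at -0.066 and -0.070. At 24 nt with genic totals, RFL9 was at -0.088, RPF3 at -0.28 and AT1G63400 at -0.13. For nrpd1-/- relative to pat at 22 nt, where no gene was called, RFL9 was at -0.023, RPF3 at -0.057, AT1G63150 at -0.24 and AT1G63400 at -0.27 with DESeq2 size factors. Genic totals put AT1G62590 at 0.39, AT1G63080 at 0.10 and AT1G63330 at 0.26. With miRNA reads RFL9 was at -0.40, RPF3 at -0.39, RPF6 at -0.14, AT1G63150 at -0.57, AT1G63230 at -0.25 and AT1G63400 at -0.61. AT1G63150 and AT1G63400 were at -0.045 and -0.069 with DESeq2's test, at -0.0085 and -0.016 without the filter, and at -0.19 to 0.28 and -0.064 to 0.20 without 1 library. At 23 nt relative to mat, AT1G63330 and AT1G63400 were at -0.64 and -0.12 with DESeq2 size factors and at -0.96 and -0.44 with miRNA reads, and AT1G63330 at -0.37 with DESeq2's test. At 23 nt relative to pat, AT1G63080 and AT1G63400 were at -0.37 and -0.31 with DESeq2 size factors, at -0.12 and -0.079 with DESeq2's test and at -0.83 and -0.80 with miRNA reads, which also put RFL9 at -0.33, RPF6 at -0.21 and AT1G63150 at -0.041. At 24 nt with miRNA reads, AT1G62590 and AT1G63330 were at -0.062 and -0.094 relative to mat and at -2.21 and -2.08 relative to pat, where RFL9 was at -0.090, AT1G63080 at -0.37, RPF6 at -0.034, AT1G63150 at -0.23 and AT1G63400 at -0.049. With TAS reads AT1G62590 and AT1G63330 were at -1.83 and -1.69 relative to pat.

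The calls over all entries also moved. For pat relative to mat, 411 calls at 21 nt became 634 with TAS reads, 265 at 22 nt became 1202 with genic totals and 1226 with TAS reads, 405 at 23 nt became 667, 824 and, with the block, 214, and 625 at 24 nt became 2858 and 1387. Without the filter, the calls of nrpd1-/- rose from 1528, 2725 and 3230 to 2830, 6772 and 7716 relative to mat (22, 23 and 24 nt) and from 687, 1758 and 2859 to 1899, 4370 and 6264 relative to pat. DESeq2's test gave 1201 calls at 22 nt relative to pat, and 4626 and 5565 at 23 and 24 nt relative to mat. The share of calls that were higher ranged over the scalings from 38.2% to 78.1%, 13.5% to 81.3%, 26.7% to 71.0% and 9.13% to 65.6% for pat relative to mat (21, 22, 23 and 24 nt), from 2.64% to 29.97%, 3.30% to 24.2% and 3.10% to 39.3% for nrpd1-/- relative to mat (22, 23 and 24 nt), and from 2.97% to 41.9%, 1.35% to 32.2% and 3.23% to 39.6% relative to pat. NG1 and AT1G63230 have too few reads of 23 and 24 nt for a test.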
